A study of Mus musculus with 6 samples.

Results

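The miR-15/16 family is a group of small regulatory RNAs with a common seed, the short stretch near the 5′ end through which a miRNA recognises its targets. Its members here were mmu-miR-15a-5p, mmu-miR-15b-5p, mmu-miR-16-5p and mmu-miR-195-5p (mmu for mouse), chosen by name: 4 of the 1247 mouse miRNAs on the array. The names of 3 members matched exactly. The 4th, miR-195-5p, is carried under its later name miR-195a-5p, and the accession column of the arrays ties both names to the same entry.

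The measurements came from mProx24, a proximal tubular epithelial cell line from the kidney of C57B6 mice, with 6 conditions and 1 miRNA array for each. High glucose and palmitate (the sample titled High FFAs, 150 µM palmitate bound to 0.15% bovine serum albumin for 9 h) were each applied at 20% oxygen. Hypoxia was 1% oxygen for 12 h. In Triple stimuli the cells received all 3, high glucose, palmitate and 1% oxygen, Triple stimuli + rapamycin added rapamycin (0.4 µg/ml for 12 h before palmitate), an inhibitor of the mTORC1 kinase complex, and Control was left without stimuli at 20% oxygen. The labels give albumin only with palmitate, so these cannot be told apart, and all cells are 1 line in culture. No condition has a replicate array. A difference between 2 conditions is therefore set against the spread between spots of the same array, which is technical and does not measure how cultures vary. Only the limma comparisons of 3 arrays against 3 use the spread between arrays. There the other treatments enter both that spread and the difference itself.

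Members of this family pair through the seed with sites in messenger RNAs and lower the level or translation of those transcripts. Targets established in human and mouse cells include BCL2, which protects cells from apoptosis, and cyclins D and E and CDK6, which drive entry into the DNA synthesis phase. The human MIR15A and MIR16-1 locus is known for its deletion in chronic lymphocytic leukaemia, and miR-195 for its link to the withdrawal of mouse heart muscle cells from the cell cycle after birth. Proximal tubular cells are mostly quiescent and re-enter the cycle after injury.

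The mature sequences, from RefSeq (GRCm38.p6), are shown because the members differ only outside the seed, which is where an array probe has to tell them apart. Capitals mark the seed, bases 2 to 8. The last sequence is miR-322-5p, the other miRNA with this seed that was measured above background.
miR-15a-5p: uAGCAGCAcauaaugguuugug
miR-15b-5p: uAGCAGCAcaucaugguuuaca
miR-16-5p: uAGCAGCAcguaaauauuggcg
miR-195a-5p: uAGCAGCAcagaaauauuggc
miR-322-5p: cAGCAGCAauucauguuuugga

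Counted from the 5′ end, with the base of the first-named miRNA written first, miR-15a-5p and miR-15b-5p were identical at 18 of 22 bases and differed by A12C, G20A, U21C and G22A. miR-16-5p and miR-195a-5p were identical at 19 of the 21 bases compared and differed by G10A and U11G. The seed AGCAGCA, which reads site UGCUGCU in a target, belonged to 10 mature mouse miRNA names in RefSeq, all of them on the array, and 4 of these were detected: miR-15a-5p, miR-15b-5p, miR-16-5p and miR-322-5p. The names not detected on any array were miR-195a-5p, miR-195b, miR-497-5p, miR-6342, miR-6353 and miR-6419.

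The genes lie in pairs. Mir15a (chr14:61632027-61632110, minus strand, GRCm38.p6) and Mir16-1 (chr14:61631880-61631972) are separated by 54 bases inside the long non-coding RNA gene Dleu2. Mir15b (chr3:69009772-69009835, plus strand) and Mir16-2 (chr3:69009902-69009996) are separated by 66 bases inside the protein-coding gene Smc4, a condensin subunit. Mir195a (chr11:70235042-70235135, plus strand) lies 241 bases from Mir497 (chr11:70234717-70234800), with no gene in the RefSeq table spanning both. Mir16-1 and Mir16-2 give the same mature miR-16-5p, so its signal is the sum of both loci, which these arrays cannot tell apart.

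Across the arrays, 162 to 193 miRNAs were detected, 11.4% to 13.3% of the miRNA spots were well above background, and none was saturated. miR-210-3p, a miRNA induced by hypoxia-inducible factor, had scaled intensities of 260, 219 and 206 on the Hypoxia, Triple stimuli and Triple stimuli + rapamycin arrays, against 24.1, 21.2 and 24.7 on the High glucose, Palmitate and Control arrays, where it was detected only on the High glucose array. Of the kidney tubule markers, 7 of 11 were detected (miR-10a, miR-10b and the miR-30 family) and miR-204-5p, miR-215-5p, miR-194-5p and miR-192-5p were not, nor were any of the 5 epithelial miR-200 family members. None of the 5 blood, 2 endothelial and 5 fibroblast and smooth muscle markers on the array was detected, and of 3 muscle markers only miR-206-3p was. All 6 arrays were on 1 slide, with the 20% oxygen arrays in its first row and the 1% oxygen arrays in its second, so oxygen and slide row cannot be told apart. The authors' deposited table carried 2 columns under exchanged names: 70.9% of the miRNAs in its high glucose column were the values of the palmitate array, and 70.6% in its palmitate column those of the high glucose array. Each of the other 4 columns matched its own array, for 68.7% (Control) to 73.5% (Triple stimuli + rapamycin) of the miRNAs, where a match is a log2 deviation under 0.002 from 1 factor per column. The 3 detected members matched in all 6 columns, with the 2 columns exchanged. The values below follow the scanner files, so the names High glucose and Palmitate may be exchanged in any result that uses them.

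Of the 4 members, 3 were detected on all 6 arrays, and mmu-miR-195a-5p on none. Each member had 2 probes, with 15 to 20 unflagged spots per probe and array for the detected members. Intensities were scaled so that the 75th percentile of the 281 probes detected on every array was equal between arrays, and a level is given as the mean over the spots of a probe with the SD between those spots. The levels of different miRNAs come from different probes and are not compared with each other.

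mmu-miR-15a-5p, which shares its transcript with Mir16-1, had a scaled intensity on its brighter probe of 74.4 ± 9.24 in Hypoxia, 77.8 ± 6.41 in Triple stimuli, 70.1 ± 3.88 in Triple stimuli + rapamycin, 77.9 ± 8.08 in High glucose, 69.2 ± 7.82 in Palmitate and 76.5 ± 8.60 in Control. Palmitate and Triple stimuli + rapamycin were the lowest arrays, and the other 4 lay close together. On the dimmer probe the values were 72.6 in Hypoxia, 75.3 in Triple stimuli, 69.9 in Triple stimuli + rapamycin, 70.4 in High glucose, 63.1 in Palmitate and 70.6 in Control. Palmitate was again the lowest, while Triple stimuli + rapamycin lay beside Control. From the highest to the lowest array the brighter probe spanned 1.13-fold, and no 2 neighbours in the order of the 6 levels were more than 2 spot SEs apart.

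mmu-miR-15b-5p, made from the cluster with Mir16-2 inside Smc4, had a scaled intensity of 818 ± 65.0 in Hypoxia, 848 ± 61.3 in Triple stimuli, 837 ± 50.4 in Triple stimuli + rapamycin, 784 ± 53.0 in High glucose, 881 ± 42.5 in Palmitate and 817 ± 44.3 in Control. Palmitate was the highest array and High glucose the lowest, 1.12-fold apart. Of the 5 steps between neighbouring levels, only that between High glucose and Control was over 2 spot SEs. The dimmer probe gave 704 in Hypoxia, 710 in Triple stimuli, 689 in Triple stimuli + rapamycin, 672 in High glucose, 744 in Palmitate and 747 in Control. High glucose was the lowest on both probes, but on the dimmer probe Control and not Palmitate was the highest.

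mmu-miR-16-5p, the member made from both clusters, had a scaled intensity of 799 ± 17.5 in Hypoxia, 785 ± 29.4 in Triple stimuli, 767 ± 24.1 in Triple stimuli + rapamycin, 755 ± 45.5 in High glucose, 754 ± 27.1 in Palmitate and 770 ± 87.9 in Control. All 6 levels lay within 1.06-fold, and no 2 neighbours in their order were more than 2 spot SEs apart. The coefficient of variation between spots was 2.19% to 6.02% on the treated arrays and 11.4% on the Control array, the widest. The dimmer probe gave 338 in Hypoxia, 345 in Triple stimuli, 332 in Triple stimuli + rapamycin, 336 in High glucose, 339 in Palmitate and 355 in Control, so the highest array was Hypoxia on one probe and Control on the other.

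**Figure D1:**
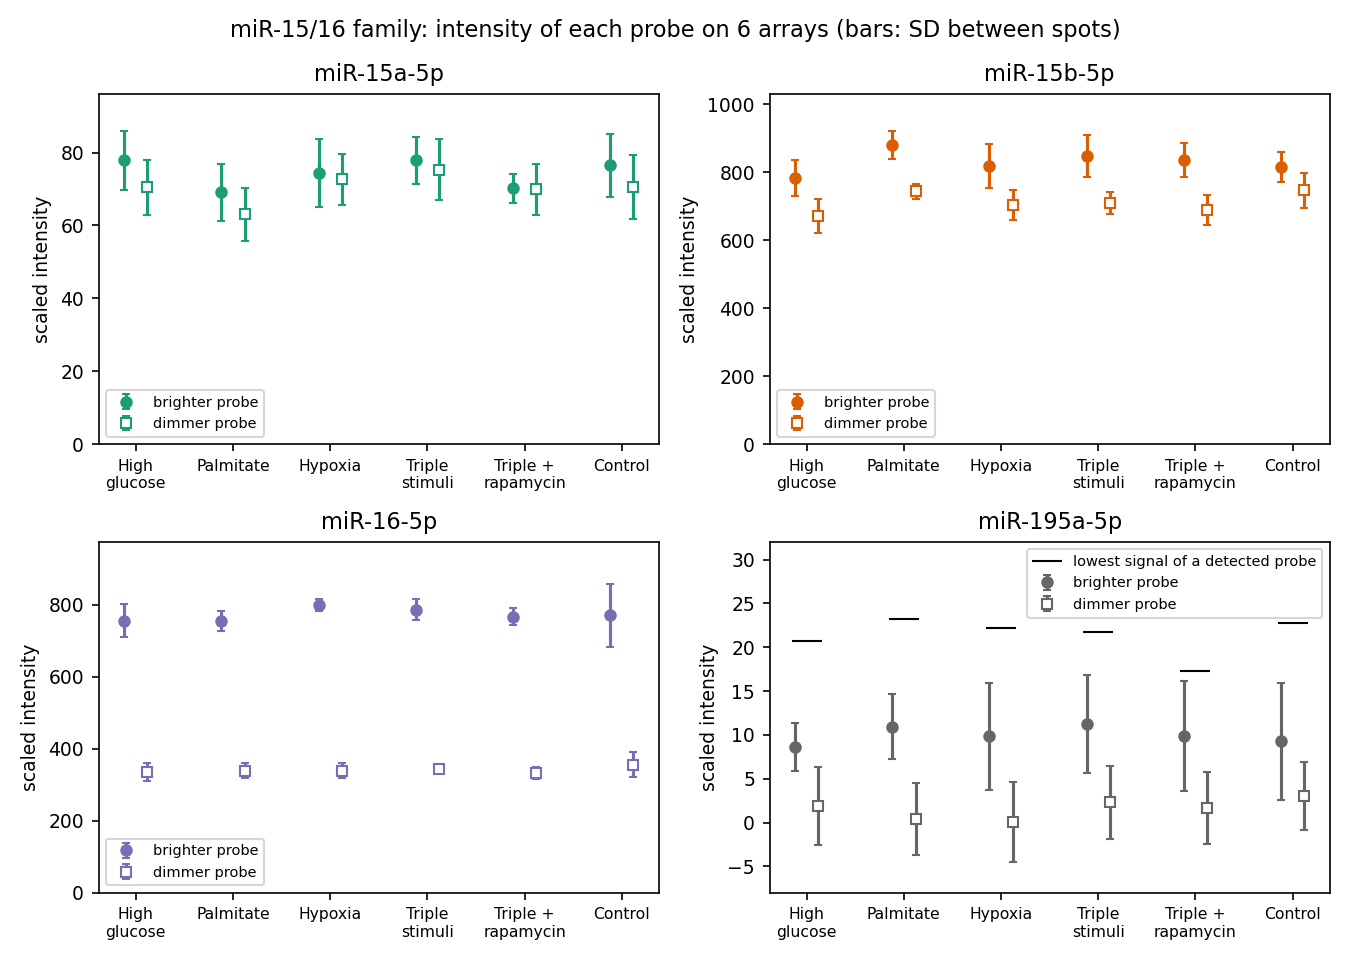
Scaled intensity (linear, y axis) of both probes of each family member on the 6 arrays (x axis), as the mean over spots with bars for the SD between spots; black marks in the miR-195a-5p panel are the lowest signal of any detected probe on that array. The 3 detected members span 1.06-fold to 1.13-fold on their brighter probes, and miR-195a-5p lies below the black marks on every array.

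miR-195a-5p was not well above background. Its brighter probe had a scaled intensity of 9.84 in Hypoxia, 11.3 in Triple stimuli, 9.87 in Triple stimuli + rapamycin, 8.67 in High glucose, 10.9 in Palmitate and 9.27 in Control, with SDs between spots of 2.73 to 6.64. These lie below the lowest signal of a detected probe, which was 17.2 to 23.2 on the 6 arrays, so no fold is given between conditions. Of its spots, 2 of 20 were well above background with Triple stimuli + rapamycin and 0 on the other arrays. The scanner software's summed signal per miRNA was 2.78 to 3.93 with errors of 47.7% to 66.5%, called not detected on all 6 arrays, and the authors' deposited table lists it at the column floor in all 6 columns. The brighter probes of this near-identical pair, read from the arrays and written as DNA 5′ to 3′, show how far the probes can separate them.
miR-16-5p probe: cgccaatatttacgtgct
miR-195a-5p probe: gccaatatttctgtgctgc
The miR-195a-5p probe pairs with all 19 of its bases to miR-195a-5p and with 17 of 19 to miR-16-5p, and it stayed below the detection limit on arrays on which both miR-16-5p probes were detected. The miR-16-5p probe pairs with all 18 of its bases to miR-16-5p and with 15 of 18 to miR-195a-5p, the base beyond the end of that shorter miRNA counted as unpaired.

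The passenger strands, cut from the other arm of the same hairpins and usually degraded, met the detection rule for 0 of 6 names (miR-15a-3p, miR-15b-3p, miR-16-1-3p, miR-16-2-3p, miR-195a-3p and miR-497-3p). By the software's own call miR-15b-3p was present on 5 of 6 arrays, at a sum of 2.70 to 3.92 with errors of 33.8% to 47.5%. The array without a call was Triple stimuli + rapamycin. miR-16-1-3p and miR-16-2-3p, whose sequences could separate the loci that miR-16-5p cannot, gave no signal above background on any array by either rule.

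The study's conditions pose the question of whether each stimulus, alone or combined, changed a member relative to Control, what glucose and palmitate added to hypoxia, and what rapamycin added to the 3 stimuli. No detected member passed 1.5-fold in any of the 7 comparisons, where a call also required detection on both arrays and a difference of over 2 spot SEs. The background of that count was low as well: 6.79% of all miRNAs detected on both arrays were called for High glucose against Control, 2.58% for Palmitate, 1.85% for Hypoxia, 5.62% for Triple stimuli and 9.15% for Triple stimuli + rapamycin. It was 8.82% for Triple stimuli against Hypoxia and 3.87% for Triple stimuli + rapamycin against Triple stimuli. A count of 0 of 3 members is near these backgrounds and is no result particular to the family.

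Over the 21 member differences (3 members, 7 comparisons) the log2 difference ran from -0.15 to 0.11, so none was larger than 1.11-fold. The median size was 0.034, against 0.13 over all 1154 differences of miRNAs detected on both arrays. Of the 21, 6 were larger than 2 spot SEs (28.6%), against 60.1% of all differences. In 12 of the 21, both probes of the member gave the same sign, and in 4 both probes were also over 2 spot SEs. The share over all miRNAs is not given for these 2 counts, and both probes share the arrays and the scaling. The counts are therefore not read as a result about the family. The contrasts with all differences are given for the scaling used here only, and the other miRNAs were not matched to the members for brightness. Scaled instead to control probes named dmr, miR-16-5p differed from Control by 0.17 in High glucose, 0.20 in Hypoxia and 0.24 in Triple stimuli. The value was 0.31 in Triple stimuli + rapamycin and -0.0061 in Palmitate. The median over all miRNAs, in the same order, was then 0.14, 0.039, 0.23, 0.21 and -0.012.

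The largest differences were those of miR-15a-5p. It differed by -0.15 (spot SE 0.05) between Palmitate and Control, and its dimmer probe gave -0.16 (spot SE 0.05). Between Triple stimuli + rapamycin and Triple stimuli it differed by -0.15 (spot SE 0.03), with -0.11 (spot SE 0.05) on the dimmer probe. In both comparisons both probes were lower by more than 2 spot SEs under this scaling. Scaled to the 75th percentile over all probes, the Palmitate difference was 0.043 and the rapamycin difference 0.077, both of the other sign. The median over all miRNAs under that scaling was 0.15 in both comparisons, against -0.035 and -0.075 under the scaling used here. Without scaling the miR-15a-5p differences were -0.039 and -0.0096. Between Triple stimuli + rapamycin and Control the brighter probe gave -0.13 (spot SE 0.04), which the dimmer probe, at -0.01 (spot SE 0.05), did not share, and which turned to 0.19 when arrays were scaled to their 8 control probes named dmr and 0.24 without scaling.

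For miR-15b-5p, the brighter probe differed by 0.11 (spot SE 0.02) between Palmitate and Control, and the dimmer probe by -0.01 (spot SE 0.02), so the 2 probes did not give the same result. Between High glucose and Control the difference was -0.06 (spot SE 0.03) on the brighter probe and -0.15 (spot SE 0.03) on the dimmer one, both lower. That direction depends on the scaling, since the brighter probe gave 0.13 with the dmr control probes and 0.22 without scaling. For miR-16-5p, the one difference over 2 spot SEs was -0.03 (spot SE 0.02) between Triple stimuli + rapamycin and Triple stimuli, with -0.05 (spot SE 0.02) on the dimmer probe. It turned to 0.19 with the 75th percentile over all probes, 0.11 without scaling and 0.070 with the dmr control probes. Hypoxia against Control gave 0.05 (spot SE 0.04) for miR-16-5p on the brighter probe and -0.07 (spot SE 0.04) on the dimmer one. Over 11 other ways of scaling and summarising, 0 of the 21 member differences, and so 0 of the 6 over 2 spot SEs, kept their sign under all 11. No direction of a member between 2 arrays therefore held under every setting. The miR-15a-5p differences for Palmitate against Control and for Triple stimuli + rapamycin against Triple stimuli each turned under 1 of the 11, the 75th percentile over all probes. There the median over all miRNAs was 0.15 in both comparisons. The turned Palmitate value was within 2 spot SEs of 0.

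Under this scaling the median over all miRNAs was itself off 0 by just over 0.1 in 3 comparisons: -0.11 for Hypoxia against Control, -0.11 for Triple stimuli + rapamycin against Control and 0.10 for Triple stimuli against Hypoxia. Relative to the median of all miRNAs, the member differences ran from -0.13, for miR-16-5p between Triple stimuli and Hypoxia, to 0.16, for miR-16-5p between Hypoxia and Control.

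**Figure D2:**
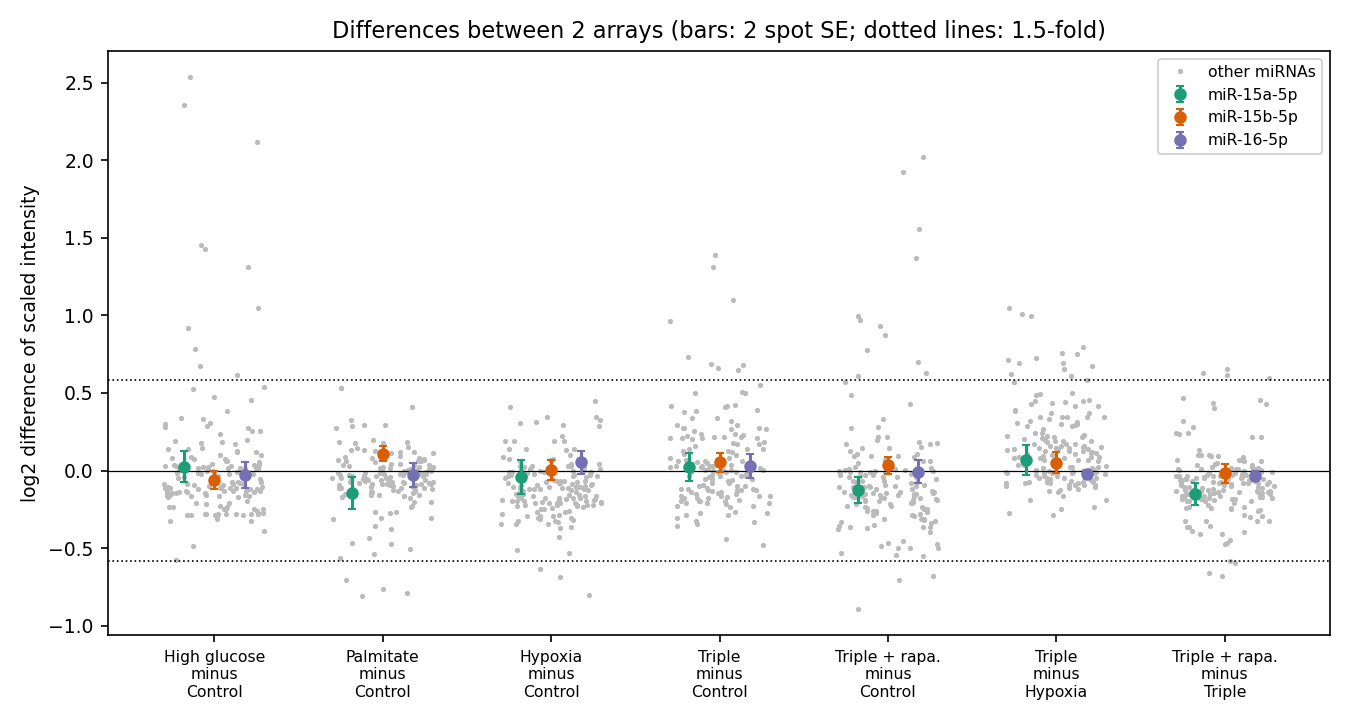
Log2 difference of scaled intensity (y axis) between 2 arrays in each of the 7 comparisons (x axis); coloured points are the detected members with bars of 2 spot SEs, grey points all other miRNAs detected on both arrays, and dotted lines mark 1.5-fold. All 21 member values lie between -0.15 and 0.11, inside the dotted lines.

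Each of oxygen, glucose and palmitate was also compared over 3 arrays against 3, with limma fitted across the 154 miRNAs detected on every array. The other treatments were not modelled and remain in the spread. Triple stimuli and Triple stimuli + rapamycin lie on the treated side of all 3 comparisons. Each difference therefore also carries part of the other stimuli and of rapamycin, and the 3 comparisons are not independent. No member passed an adjusted p of 0.05 for any factor; the lowest adjusted p of a member was 0.909 and the lowest unadjusted one 0.223. The calls over all miRNAs were 0% for oxygen (0 of 154, with 7 at an unadjusted p under 0.05), 9.74% for glucose (15 of 154, with 30 unadjusted) and 0% for palmitate (0 of 154, with 5 unadjusted).

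miR-16-5p had a mean log2 intensity of 9.61 ± 0.03 at 1% oxygen and 9.57 ± 0.02 at 20% oxygen (SD, n = 3 each), a limma difference of 0.04 (SE 0.06, adjusted p = 0.930). miR-15a-5p and miR-15b-5p differed by -0.01 (SE 0.08) and 0.01 (SE 0.07) for oxygen. For glucose, the differences were 0.04 (SE 0.08) for miR-15a-5p, -0.03 (SE 0.07) for miR-15b-5p and -0.01 (SE 0.06) for miR-16-5p. All of these lie within 1 SE of 0.

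miR-15b-5p averaged 9.74 ± 0.04 with palmitate and 9.66 ± 0.04 without it (SD, n = 3 each), a limma difference of 0.08 (SE 0.06, adjusted p = 0.909). On the brighter probes it was the only member whose 2 groups of 3 arrays did not overlap for any factor. On its dimmer probe the palmitate groups overlapped, with Control at 747 above Palmitate at 744, and the limma difference was 0.01 (SE 0.08, adjusted p = 0.979). Among all miRNAs 7.79% did not overlap for palmitate, 29.2% for glucose and 11% for oxygen. miR-15a-5p averaged 6.18 ± 0.09 with palmitate and 6.25 ± 0.03 without it (SD, n = 3 each), a limma difference of -0.08 (SE 0.07, adjusted p = 0.909), with overlapping groups. The difference of miR-16-5p was -0.01 (SE 0.06).

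Over the 6 arrays the SD of the log2 level was 0.075 for miR-15a-5p, 0.057 for miR-15b-5p and 0.032 for miR-16-5p, against a median of 0.12 over the 154 miRNAs. Counted from the lowest, these SDs ranked 28, 12 and 3 of 154, and the range of miR-16-5p, 1.06-fold, was the smallest of all, where the median range was 1.25-fold. The 154 miRNAs were not matched for brightness, so a low rank is not read as particular to the family. Among other bright miRNAs the SD was 0.044 for let-7i-5p, 0.054 for miR-93-5p and 0.056 for miR-23a-3p. It was higher for others, such as 0.099 for miR-31-5p and 0.20 for miR-3096b-3p. The rank of miR-16-5p depends on how the arrays were scaled. Its dimmer probe lay at the scaling percentile itself, being the 75th percentile of the Hypoxia array and deviating from it by -1.83% to 5.01% on the others, so the scaling holds that probe nearly level by construction. With the members' own probes left out of the percentile its SD was 0.061 and its rank 13. Scaled to the dmr control probes, the 8 that were well above background on every array, its SD was 0.13 and its rank 52, and without scaling the rank was 55.

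Over 12 ways of scaling and summarising, each of the 3 members stayed below the median SD of all miRNAs in all 12. The share of miRNAs with a lower SD ranged from 0% to 42.2% for miR-15a-5p, from 4.55% to 43.5% for miR-15b-5p and from 0% to 35.1% for miR-16-5p. The 0% for miR-16-5p came from its dimmer probe and from the mean of its probes. Both used the scaling that holds the dimmer probe nearly level, so the 12 are not independent checks. The widest range over the 6 arrays under any of these settings was 1.29-fold for miR-15a-5p, 1.35-fold for miR-15b-5p and 1.29-fold for miR-16-5p.

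**Figure D3:**
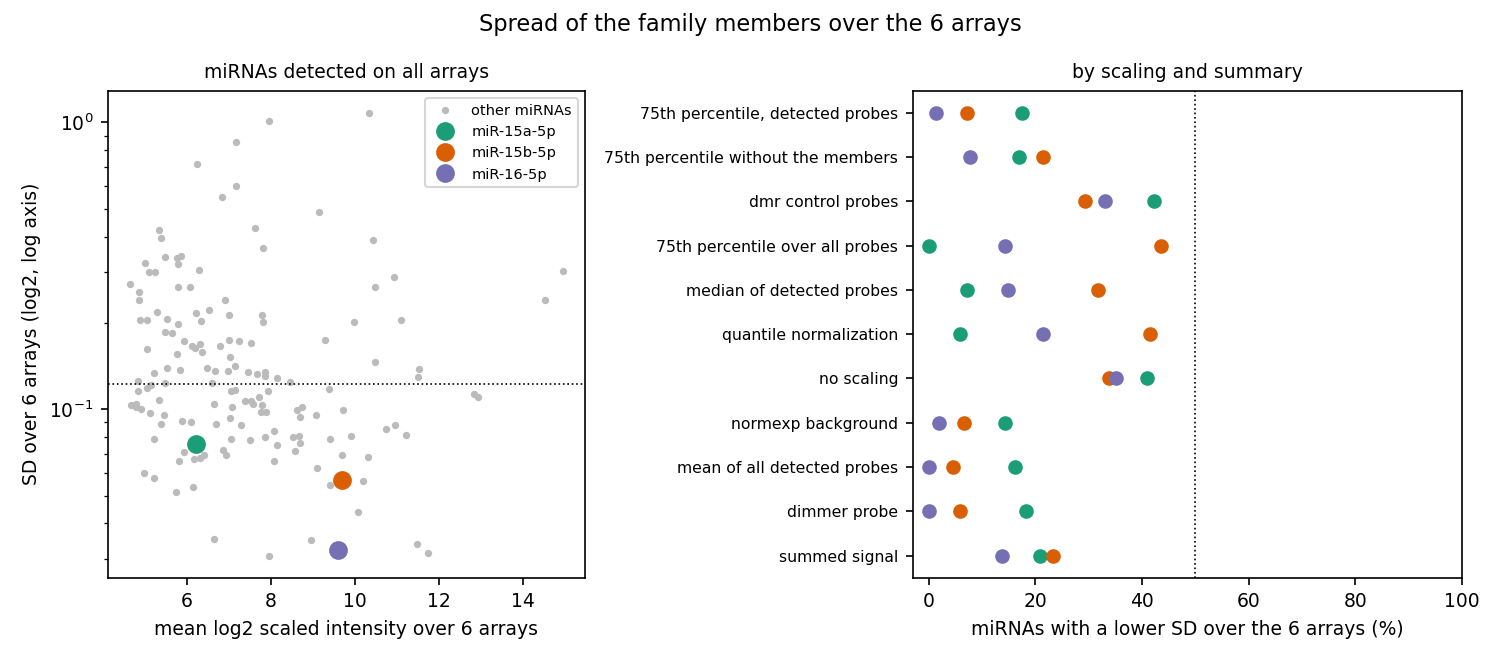
Left, SD of the log2 scaled intensity over the 6 arrays (log axis) against the mean log2 level for the 154 miRNAs detected on all arrays, with the detected members in colour and the median SD as a dotted line. Right, percent of those miRNAs with a lower SD than each member under 11 scalings and summaries; every member lies left of 50%, and miR-16-5p moves from 1.30% with the scaling used here to 33.1% with the dmr control probes.

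Ratios between members on the same array do not depend on a scaling by 1 factor per array. They do depend on the probe and on the background correction. On the brighter probes, relative to Control, the log2 ratio of miR-15a-5p to miR-15b-5p was -0.25 (spot SE 0.06) in Palmitate and -0.16 (spot SE 0.05) in Triple stimuli + rapamycin, while in High glucose it was 0.08 (spot SE 0.06), in Hypoxia -0.04 (spot SE 0.06) and in Triple stimuli -0.03 (spot SE 0.05). On the dimmer probes the same ratio was -0.16 (spot SE 0.06) in Palmitate, while it was above Control on the other 4 treated arrays, at 0.10 (spot SE 0.06) in Triple stimuli + rapamycin, 0.15 (spot SE 0.06) in High glucose, 0.13 (spot SE 0.06) in Hypoxia and 0.17 (spot SE 0.06) in Triple stimuli. Palmitate was the only array below Control on both probe pairs by more than 2 spot SEs. After a normexp background correction Palmitate was not the lowest array. Relative to Control, miR-15a-5p was then -0.19 and miR-15b-5p 0.071 in Triple stimuli + rapamycin, further apart than -0.11 and 0.11 in Palmitate. With the software's summed signal the Palmitate value was -0.21 with an error of 0.23 from the software's own error estimate, and the Triple stimuli + rapamycin value was -0.04. The log2 ratio of miR-15b-5p to miR-16-5p on the brighter probes was 0.14 (spot SE 0.05) in Palmitate and between -0.05 and 0.04 on the other 4 treated arrays, with spot SEs of 0.05. On the dimmer probes the Palmitate value was 0.064 (spot SE 0.05), within 2 spot SEs of 0. Without the normexp correction, the lowest of these ratios on the brighter probes, miR-15a-5p to miR-15b-5p in Palmitate, was 0.838-fold that of Control. With 1 array each it has no replicate check.

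**Figure D4:**
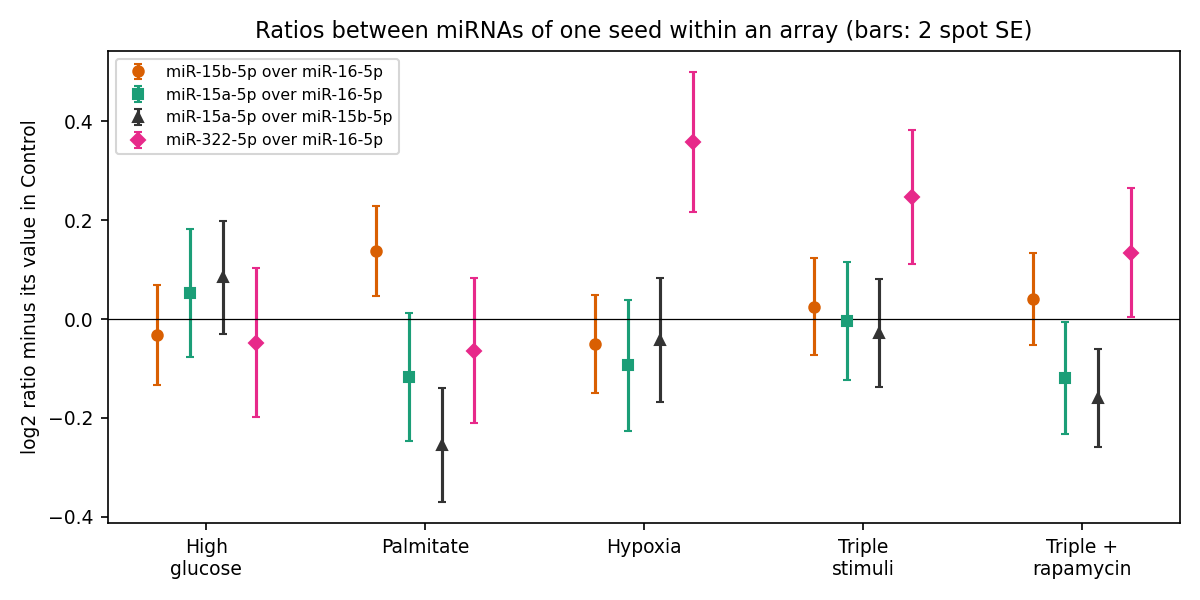
Log2 ratio between 2 miRNAs with the family seed on the same array, from their brighter probes, minus that ratio in Control (y axis), for the 5 treated arrays (x axis); bars are 2 spot SEs. The ratio of miR-15a-5p to miR-15b-5p is lowest in Palmitate at -0.25, and that of miR-322-5p to miR-16-5p is highest in Hypoxia at 0.36.

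miR-322-5p, the mouse counterpart of human miR-424, which carries the same seed and is transcribed from the X chromosome (chrX:53054306-53054327 for the mature sequence, minus strand), was the measured miRNA of this seed with the widest spread. Its scaled intensity was 99.7 in Hypoxia, 90.7 in Triple stimuli, 81.9 in Triple stimuli + rapamycin, 71.1 in High glucose, 70.3 in Palmitate and 74.9 in Control. The 3 arrays at 1% oxygen were all above the 3 at 20% oxygen. Against Control it differed by 0.41 (spot SE 0.06) in Hypoxia, 0.28 (spot SE 0.06) in Triple stimuli and 0.13 (spot SE 0.05) in Triple stimuli + rapamycin, none past 1.5-fold on the brighter probe. Its dimmer probe gave 0.59 (spot SE 0.05) in Hypoxia, 1.51-fold and so just past that limit. The limma difference for oxygen was 0.33 (SE 0.09, adjusted p = 0.499), and 11% of all miRNAs had groups of 3 that did not overlap for oxygen. Its log2 ratio to miR-16-5p in Hypoxia relative to Control was 0.36 (spot SE 0.07) on the brighter probes and 0.67 (spot SE 0.06) on the dimmer ones, 0.47 with the summed signal and 0.09 (spot SE 0.05) after a normexp background correction, so its size depends on the probe and the background correction.

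How far the members followed one another over the arrays depended on the scaling and the probe. With the scaling and brighter probes used here, Pearson's r of the log2 levels over the 6 arrays, given as a description of points that share arrays and scaling, was -0.67 between miR-15a-5p and miR-15b-5p, 0.31 between miR-15a-5p and miR-16-5p and -0.06 between miR-15b-5p and miR-16-5p. On the dimmer probes the same r were -0.41, 0.22 and 0.69, and without scaling, where the brightness of an array moves all of its probes, they were 0.62, 0.87 and 0.87. The mean of the 3 centred profiles was 0.04 in Triple stimuli, the highest array, and -0.03 in Triple stimuli + rapamycin, the lowest. The 5 miRNAs whose log2 profile had the highest r with that mean over the 6 arrays were miR-106b-5p (0.93), miR-19a-3p (0.87), miR-3470a (0.82), miR-222-3p (0.81) and miR-19b-3p (0.81). The family mean spanned only these -0.03 to 0.04, so the order of likeness rests on small differences.

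Other miRNAs known to repress the same classes of targets were compared in the same way. Of the 16 miRNAs known to repress G1 cyclins, their kinases or E2F factors that were on the array, 11 were detected on all 6 arrays, and 0 of 11 passed 1.5-fold in each of the 7 comparisons. Over all miRNAs detected on both arrays 1.85% to 9.15% were called, so 0 of 11 is near the background and no result about this list. Their differences ran from -0.25, for miR-24-3p between Triple stimuli + rapamycin and Control, to 0.22, for miR-20a-5p between Triple stimuli and Hypoxia. Their median differences ran from -0.12 to -0.01, and those over all miRNAs from -0.11 to 0.10. The medians lay furthest apart for Triple stimuli against Control (-0.12 in the list, 0.01 over all) and Triple stimuli against Hypoxia (-0.01 and 0.10). The list median was higher for Triple stimuli + rapamycin against Control (-0.07 and -0.11) and against Triple stimuli (-0.02 and -0.07), and lower in the rest. limma called 0 of 11 for each factor, with none under 0.05 before adjustment, beside 0%, 9.74% and 0% of all miRNAs for oxygen, glucose and palmitate. miR-503-5p, which lies near Mir322 and targets cyclin D1, was not detected.

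Of 11 miRNAs known to repress BCL2 or MCL1, 9 were detected on at least 1 array and 8 on all 6, and 0 of the 8 detected on both arrays passed 1.5-fold in each of the 7 comparisons, again near the 1.85% to 9.15% called over all miRNAs. Their differences ran from -0.55 (spot SE 0.08), for miR-181b-5p between Triple stimuli + rapamycin and Control, to 0.38 (spot SE 0.07), for miR-29c-3p between High glucose and Control. miR-181b-5p, which targets BCL2, was the 1 of 8 that limma called, with a difference of -0.34 (SE 0.08, adjusted p = 0.0448) between high and normal glucose, where 9.74% of all miRNAs were called. This miRNA was faint, with a mean log2 intensity of 5.05 over the 6 arrays. The difference was below 0 under all 21 alternatives, from -0.54 to -0.14, but the call held under 5 of them. After a normexp background correction it was -0.21 (limma adjusted p = 0.137). With oxygen, glucose, palmitate and rapamycin fitted together it was -0.27. With each of the 6 arrays left out the difference was -0.38 to -0.28 and its limma adjusted p 0.0831 to 0.153, and with the high glucose and palmitate labels exchanged it was -0.19 at 0.909. The others of this list passed for no factor.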

How the data were processed

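RNA of 6 cultures was measured on 1-colour Agilent miRNA arrays, 1 per condition. Per the file headers, Agilent Feature Extraction 10.7.3.1 produced the deposited background-subtracted spot intensity values, which are linear and not scaled between arrays. The authors' deposited table holds a linear signal per miRNA. For 68.7% to 73.5% of the miRNAs per column, the 3 detected members among them, it equals the software's summed signal divided by 1 factor per array, and the rest deviate. No source used here gives the choice of that factor or the step behind the deviations. The table is not centred.

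Control and outlier spots were left out, and spots of a probe averaged. A probe was detected with at least 0.5 of its spots well above background, and a miRNA with any such probe. Arrays were scaled to the 75th percentile of the 281 probes detected on all 6, floored at the lowest detected signal and moved to log2. The brightest probe stood for a miRNA. Differences between 2 arrays carry the spot SE and no p. Groups of 3 were tested two-sided with limma 3.58.1 (R 4.3.3), adjusted by Benjamini-Hochberg over 154 miRNAs. Both procedures were tested on simulated data. The number of arrays limits the precision. Scaling, background correction, probe summary, detection rule, exchanged labels and left-out arrays were varied. Named miRNAs were the members, others of the same seed, passenger strands, lists of cell cycle and BCL2 or MCL1 repressors, of which the extremes and those called are named, markers, and the 5 most alike profiles; miR-210-3p and miR-503-5p were added as a check of the oxygen labels and a neighbour of Mir322. The members and lists were chosen with earlier results of these data known.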

Additional observations from a re-analysis of the deposited data

How the results depend on the processing

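No member passed 1.5-fold between 2 arrays under any alternative. Over all of them, including 2 scalings chosen after seeing the data (the dmr control probes, and the percentile without the members), the member differences between 2 arrays ran from -0.29 to 0.40, at most 1.32-fold. Within these limits the sign of each of the 21 differences turned under at least 1 of 11 alternatives. The median over all miRNAs also took both signs between settings in every comparison. For those over 2 spot SEs the ranges over the 11 were, for miR-15a-5p, -0.18 to 0.043 (Palmitate against Control), -0.24 to 0.24 (Triple stimuli + rapamycin against Control) and -0.21 to 0.077 (Triple stimuli + rapamycin against Triple stimuli), for miR-15b-5p, -0.17 to 0.22 (High glucose against Control) and -0.29 to 0.30 (Palmitate against Control, the lowest from the deposited table with its exchanged columns), and for miR-16-5p, -0.093 to 0.19 (Triple stimuli + rapamycin against Triple stimuli). With limma, 0 members were called under every alternative except glucose without scaling. That called 1, miR-15a-5p, at 0.23 (adjusted p = 0.0470). Unscaled, the 3 high glucose arrays were the brightest (75th percentile 346 to 382, against 295 to 335). The share of all miRNAs called there is not given, so the call is no result about this member. The number of all miRNAs past 1.5-fold varied, for example between 3 and 29 for Palmitate against Control. With 1 array per condition no paired analysis was possible. The following limma differences took the other sign without passing the test, and the cause was not tested. For glucose and palmitate, the deposited table's values also carry its exchanged columns.

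For oxygen, miR-15a-5p was 0.12 without scaling, 0.044 with the mean of its probes, 0.095 with the dimmer probe, 0.13 with the summed signal, 0.055 in the deposited table, 0.15 with the dmr control probes, 0.032 with the percentile without the members and 0.029 in the additive model. miR-15b-5p was -0.052 with the 75th percentile over all probes, -0.057 with the median, -0.012 with the mean of its probes and -0.038 with the dimmer probe. miR-16-5p was -0.021 with the 75th percentile over all probes, -0.027 with the median and -0.020 with the dimmer probe.

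For glucose, miR-15a-5p was -0.068 with the 75th percentile over all probes, -0.13 with the median, -0.041 with quantile normalisation, -0.040 with normexp, -0.088 in the deposited table and -0.077 with the high glucose and palmitate labels exchanged. miR-15b-5p was 0.17 without scaling, 0.023 in the deposited table, 0.084 with the labels exchanged and 0.16 with the dmr control probes. miR-16-5p was 0.19 without scaling, 0.0096 with normexp and 0.18 with the dmr control probes.

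For palmitate, miR-15a-5p was 0.0030 without scaling and 0.037 with the labels exchanged, and miR-15b-5p was -0.22 in the deposited table and -0.028 with the labels exchanged. miR-16-5p was 0.058 with the 75th percentile over all probes, 0.069 without scaling, 0.032 with the summed signal, 0.062 with the dmr control probes and 0.022 with the percentile without the members.

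Leaving out 1 array at a time, miR-15a-5p ranged from -0.060 to 0.032 for oxygen, from -0.0051 to 0.087 for glucose and from -0.13 to -0.045 for palmitate. miR-15b-5p ranged from -0.024 to 0.060 for oxygen, from -0.050 to 0.0081 for glucose and from 0.063 to 0.10 for palmitate. miR-16-5p ranged from 0.030 to 0.060 for oxygen, from -0.028 to 0.013 for glucose and from -0.029 to 0.011 for palmitate. The lowest adjusted p among these limma fits was 0.612. Signal over background limits miR-195a-5p and the passenger strands, for which only a bound can be given.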
